A study of Mus musculus with 4 samples.

Results

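The transcripts described here encode secreted growth factors that act on blood vessels, epithelium and connective tissue, and 1 receptor. They were chosen by name as 10 genes: Vegfa, Vegfb, Vegfc, Pdgfb, Hbegf, Areg, Ereg, Hgf, Met and Igf1. Earlier results of these data were known at that choice, so shares over all genes given beside their counts are no test. All probe sets that the platform annotation gives to only 1 of these symbols were taken, a probe set being a group of short probes that read 1 transcript. This found 20 probe sets for 9 genes, out of 34945 probe sets with a single gene symbol for 18193 genes. No probe set carried the symbol Areg in the annotation used here, so that gene was not analysed.

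The cells were bone marrow-derived macrophages from mice on a C57BL/6 background, grown for 5 days with 10% serum and 10% supernatant of L929 fibroblasts, which supplies macrophage colony-stimulating factor. The 4 groups were cells with a double knockout of Hes1 and Hey1 (DKO) given 2 ng/ml lipopolysaccharide (LPS) for 3 h, untreated DKO cells, wild-type (WT) cells with the same LPS dose, and untreated WT cells. LPS is a component of the bacterial outer membrane sensed by the receptor TLR4, and Hes1 and Hey1 encode transcriptional repressors that Notch signalling induces. Each group was 1 array, so no difference has a replicate check and no test or error could be given. How the genes were deleted, in which cells, and how many mice gave cells are not given in the sources used here.

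Macrophages in injured or inflamed tissue are known as a source of growth factors. VEGF and PDGF ligands are dimers that bind receptor tyrosine kinases on endothelial cells, pericytes and fibroblasts. EGF family ligands are made as membrane precursors and cut loose by the protease ADAM17. HGF is secreted inactive, is cut by serine proteases and then binds MET on epithelial cells. IGF1 binds the IGF1 receptor and is held in the circulation and in tissues by IGF binding proteins.

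Intensities are in the authors' linear units. Values under 52.9 units, the median of all probe sets other than controls, were treated as a floor. A difference with 1 array under it is a bound, printed as "at least", and 2 arrays under it give no difference. Each gene is represented by its brightest probe set unless others are named. Median intensity was 50.8 and 51.0 on the DKO arrays with and without LPS, 50.9 on the WT array with LPS and 59.1 on the untreated WT array. Dim probe sets, with all 4 values under the floor, read higher on the untreated WT array than on the others by a median of 0.24 (log2). The excess was 0.015 where all 4 values reached 500 units and 0.23 in between. Hes1 read 5.80 units with LPS and 2.14 untreated in DKO cells, against 26.7 and 45.4 in WT cells. Hey1 read 10.2 and 9.17 in DKO cells, against 17.3 and 57.2 in WT cells, so 7 of these 8 values lay under the floor and check the labels only weakly. All 8 macrophage markers, Csf1r and Adgre1 among them, were above the floor on every array. All 6 fibroblast, 7 neutrophil, 3 dendritic cell and 5 lymphocyte markers were under it on every array, as were 4 of 6 endothelial, 3 of 5 epithelial and 5 of 6 mast cell markers. The exceptions were the endothelial genes Vwf, at 1293 to 1869 units, and Kdr, given below, the mast cell marker Gata2, at 91.0 to 113, and the epithelial markers Epcam and Krt8. Epcam read 41.6 units in DKO cells with LPS, 119 in untreated DKO cells, 112 in WT cells with LPS and 138 in untreated WT cells, and Krt8 read 43.0, 50.2, 53.8 and 72.1. Epcam was thus at least 2.13-fold lower in DKO than in WT cells with LPS and at least 2.24-fold lower with LPS than without it in DKO cells. The 5 epithelial markers summed to 120.3 units in DKO cells with LPS, 216 in untreated DKO cells, 221 in WT cells with LPS and 275 in untreated WT cells. Part of each sum is signal under the floor, which has no reliable order.

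With LPS, 3 of the genes were at least 2-fold higher in both genotypes, the lymphatic growth factor gene Vegfc, the receptor gene Met and Pdgfb, where 4.66% of all genes were in DKO cells and 3.36% in WT cells. Igf1 was also higher with LPS in both genotypes, by less than 2-fold. Vegfc and Met were lower in DKO than in WT cells under LPS, by 2.31-fold and 2.12-fold. Igf1 was higher in DKO cells by less than 2-fold with and without LPS, in all 4 of its probe sets. The median of the 8 macrophage markers was also higher in DKO cells, as given below. Hbegf and Ereg were under the floor on all 4 arrays. Vegfa, Vegfb and Hgf read lower with LPS than without it in both genotypes by their brightest probe sets, all by less than 2-fold, although Hgf turned to 0.0093 (log2) in DKO cells after cyclic loess.

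**Figure D1:**
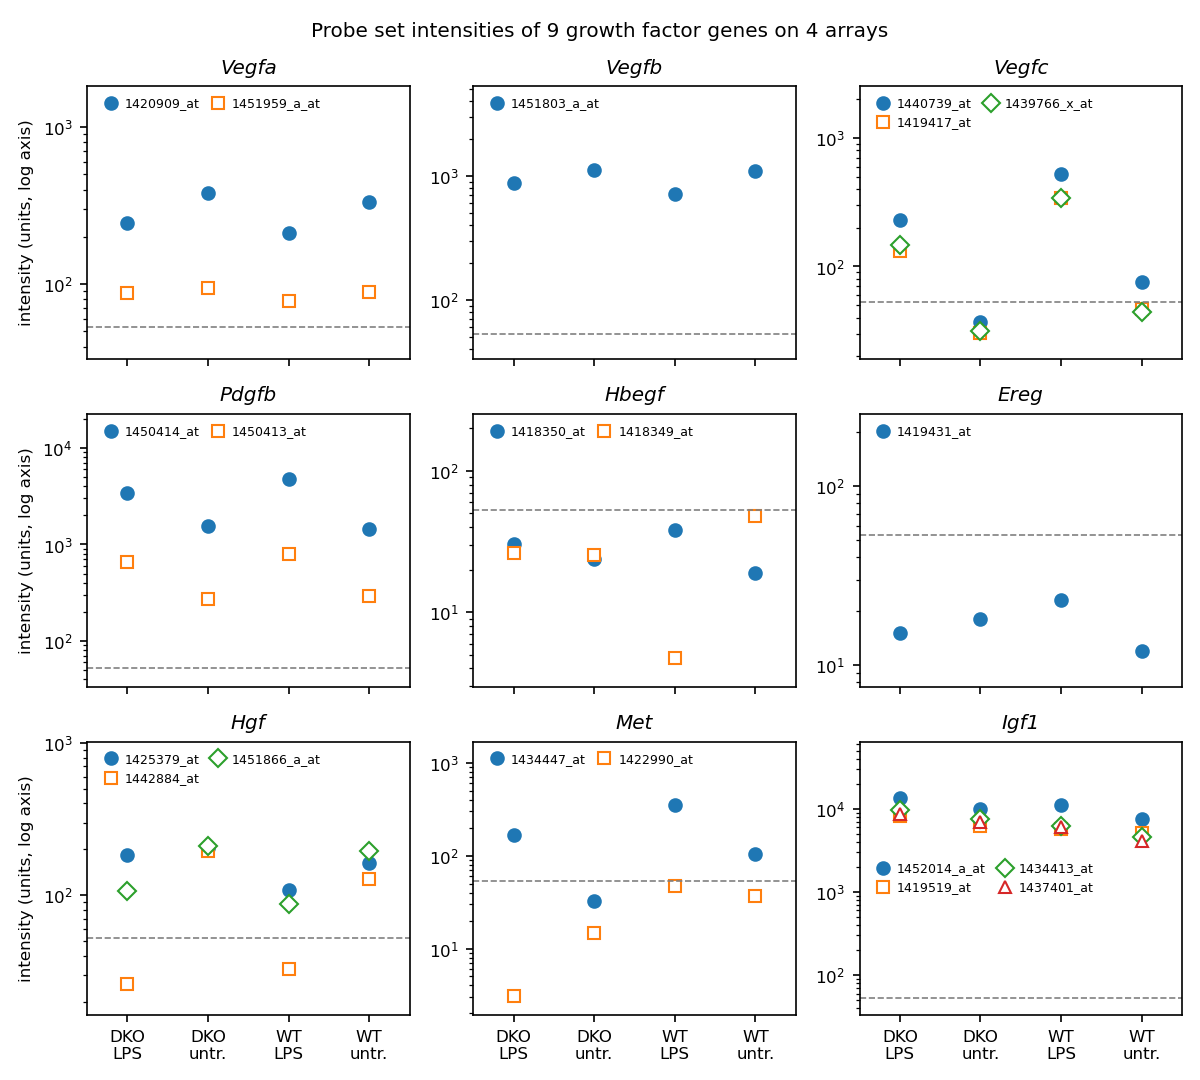
Intensity on a log axis of each probe set (symbols, with the brightest filled) of the 9 genes on the 4 arrays, DKO with LPS, DKO untreated, WT with LPS and WT untreated from left to right. The dashed line is the floor of 52.9 units, and Hbegf and Ereg lie under it on every array while Igf1 lies far above it.

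Of the VEGF and PDGF ligands, Vegfc, whose product drives lymphatic vessel growth through VEGFR3, differed most between arrays. Its brightest probe set read 229 units in DKO cells with LPS, 36.9 in untreated DKO cells, 529 in WT cells with LPS and 75.8 in untreated WT cells. The other probe sets read 132, 30.2, 339.9 and 46.8, and 147, 31.7, 342 and 43.9, in the same order of arrays. In all 3 probe sets the WT array with LPS was highest and the DKO array with LPS came next, and both untreated DKO and untreated WT cells were near or under the floor.

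Vegfc was at least 4.33-fold higher with LPS in DKO cells by the brightest probe set, and at least 2.49-fold and 2.78-fold by the others. In WT cells it was 6.98-fold higher with LPS, and at least 6.42-fold and 6.46-fold. The untreated DKO array lay under the floor in all 3, so the LPS effects of the 2 genotypes could not be subtracted. Between arrays with LPS all 3 probe sets were measured, and DKO cells were lower than WT cells by 2.31-fold, 2.58-fold and 2.32-fold. Without LPS the brightest probe set was at least 1.43-fold lower in DKO cells, and the others gave no value. Only the untreated WT array was above the floor there, so that difference could run only downwards. It was a bound of -0.36 (log2) with array medians set equal.

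Pdgfb encodes the B chain of PDGF, a recruiter of pericytes and fibroblasts. Its brightest probe set read 3409 units in DKO cells with LPS, 1547 in untreated DKO cells, 4726 in WT cells with LPS and 1457 in untreated WT cells. The other read 654, 271, 804 and 291. Both arrays with LPS were higher than both untreated arrays by either probe set. The LPS effect was 2.20-fold and 2.41-fold in DKO cells, against 3.24-fold and 2.76-fold in WT cells. DKO cells with LPS were lower than WT cells with LPS by 1.39-fold and 1.23-fold. Without LPS the probe sets differed in direction, with log2 differences of DKO minus WT of 0.086 and -0.10. The difference of the LPS effects, DKO minus WT, was -0.56 and -0.19 (log2), which is -0.77 to -0.19 over the alternatives.

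Vegfa, the main vascular endothelial growth factor and a target of hypoxia-inducible factors, read 243 units in DKO cells with LPS, 380.3 in untreated DKO cells, 212 in WT cells with LPS and 332 in untreated WT cells. Its other probe set, which reads several transcript variants, gave 87.7, 94.3, 77.7 and 89.0. Both read lower with LPS, by 1.56-fold and 1.07-fold in DKO cells and by 1.57-fold and 1.15-fold in WT cells. DKO cells were above WT cells in both probe sets with LPS, by 1.15-fold and 1.13-fold, and without it, by 1.15-fold and 1.06-fold. The probe sets thus gave the same order of the 4 arrays and different sizes of the LPS effect.

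Vegfb, whose product binds VEGFR1, has 1 probe set. It read 871 units in DKO cells with LPS and 1108 in untreated DKO cells, against 719 in WT cells with LPS and 1106 in untreated WT cells. The untreated arrays differed by 0.0026 (log2). With LPS it read 1.27-fold lower in DKO cells and 1.54-fold lower in WT cells, and DKO cells with LPS were 1.21-fold above WT cells with LPS.

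Of the EGF family ligands, neither measured gene gave a difference. Hbegf, heparin-binding EGF-like growth factor, read 30.5, 23.8, 38.3 and 19.0 units by its brighter probe set in DKO cells with LPS, untreated DKO cells, WT cells with LPS and untreated WT cells. The dimmer probe set read 26.4, 25.4, 4.71 and 47.9 in that order of arrays. Ereg, epiregulin, read 15.0, 18.0, 23.2 and 12.0. All 12 values were under the floor, and bacterial control probe sets, which no mouse transcript should match, reached 22.8, 23.5, 46.0 and 32.7 units on the same arrays. Such values have no reliable order, and an LPS effect in these genes was not detectable at this signal.

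Hgf and its receptor gene Met went opposite ways with LPS in both genotypes, Hgf in DKO cells with the exception under cyclic loess given above. Met read 167 units in DKO cells with LPS, 32.6 in untreated DKO cells, 353 in WT cells with LPS and 104 in untreated WT cells. It was at least 3.15-fold higher with LPS in DKO cells and 3.41-fold higher in WT cells. DKO cells were lower than WT cells by 2.12-fold with LPS and by at least 1.96-fold without it. Of the untreated arrays only the WT array was above the floor, so the difference without LPS could run only downwards. In this range that array read higher by a median of 0.23 (log2), whose part was not tested. With array medians set equal the bound was -0.81 (log2). For Met the order of the 4 arrays was that of Vegfc. The second probe set of Met read 3.08, 14.8, 47.0 and 36.3 units, under the floor on every array, so that Met rests on 1 probe set. With the probe sets combined by their median all calls on Met were lost, at log2 differences of 0.83 in DKO cells and 0.89 in WT cells for LPS, and of -0.54 for DKO minus WT cells with LPS. With 1 of 2 probe sets at the floor throughout, this median shrinks any difference by construction, so the loss is no separate check. Of the epithelial markers given above, Epcam was also lower in DKO than in WT cells with LPS. Krt8 gave a bound of -0.024 (log2) there, and the other 3 were under the floor on every array. Epcam was lower with LPS than without it in both genotypes, while Vegfc and Met were higher. The part of these markers in the differences of Vegfc and Met was not tested.

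Hgf has 3 probe sets, and they gave different sizes of the LPS effect. The brightest read 183 units in DKO cells with LPS, 203 in untreated DKO cells, 109 in WT cells with LPS and 164 in untreated WT cells. Another, for several transcript variants, read 107, 212, 87.3 and 196, and the last 26.3, 196, 33.1 and 128. With LPS the brightest was 1.11-fold lower in DKO cells, the second 1.98-fold and the last at least 3.70-fold. In WT cells the log2 difference of the brightest was -0.59, and the others were 2.24-fold and at least 2.43-fold lower. Every array with LPS was thus lower than the untreated array of its genotype in all 3. Between genotypes, DKO cells with LPS were above WT cells with LPS by 1.68-fold for the first and 1.23-fold for the second, and the last gave no value. Without LPS DKO cells were above WT cells by 1.24-fold, 1.08-fold and 1.52-fold.

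Igf1, a growth factor gene that macrophages express in tissue repair, read 13437 units in DKO cells with LPS, 9817 in untreated DKO cells, 11139 in WT cells with LPS and 7511 in untreated WT cells by its brightest probe set. The others read 8191, 6291, 5658 and 5099.7, then 9653, 7597, 6234 and 4600.5, and 8571, 6986, 6033 and 4095. The DKO array with LPS was highest and the untreated WT array lowest in all 4 probe sets. The 2 arrays between them changed order: in 3 of the 4 probe sets untreated DKO cells were above WT cells with LPS, and in the brightest they were below.

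Igf1 was higher in DKO than in WT cells by 1.21-fold to 1.55-fold with LPS and by 1.23-fold to 1.71-fold without it. With LPS it was 1.23-fold to 1.37-fold higher in DKO cells and 1.11-fold to 1.48-fold higher in WT cells. None of these 16 differences reached 2-fold. For scale, 4709 genes had a pair of probe sets that both stayed above the floor, and the median gap between the differences they gave was 0.18 (log2) for DKO minus WT cells with LPS and 0.20 without it. The 95th percentile of the gap was 0.69 with LPS and 0.72 without it. The genotype differences of Igf1 ran from 0.27 to 0.63 with LPS and from 0.30 to 0.77 without it. Such gaps do not measure the spread between arrays. For DKO minus WT cells the 8 macrophage markers had a median of 0.32 (log2) without LPS and 0.12 with it. Their median LPS effect was 0.14 in DKO cells and 0.35 in WT cells. The part of a shift shared with these markers in the Igf1 differences was not tested.

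**Figure D2:**
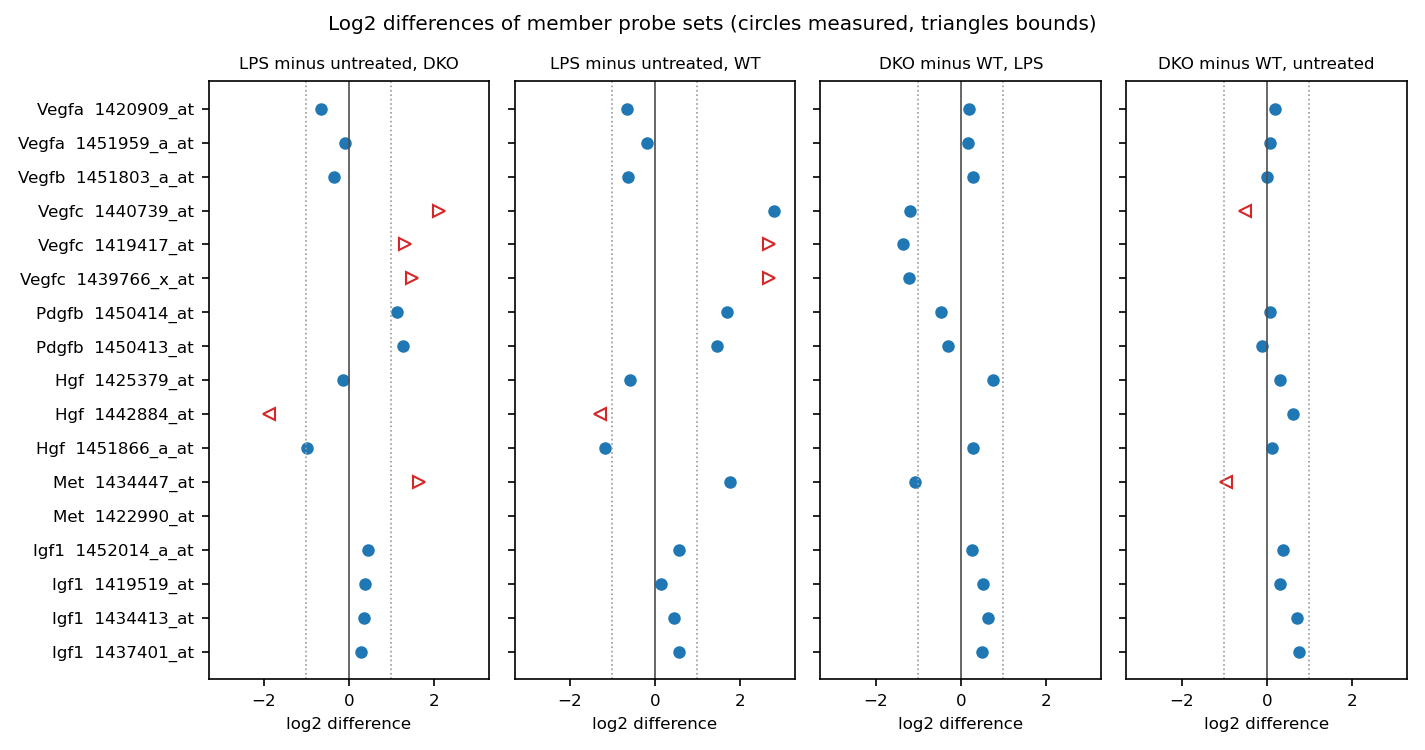
Log2 differences of each probe set of the 7 genes above the floor on at least 1 array, in 4 comparisons, with circles for measured differences, triangles for bounds pointing away from 0 and dotted lines at 2-fold. Vegfc, Pdgfb and Met lie right of 0 with LPS in both genotypes, Vegfc and Met pass the left 2-fold line for DKO minus WT with LPS, and all Igf1 points lie right of 0.

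Of the 9 genes, 7 were above the floor on at least 1 array and 5 on all 4. With LPS in DKO cells 3 of 7 were at least 2-fold higher, where 4.66% of all 11241 genes with a value were. In WT cells it was also 3 of 7, where 3.36% of 11491 genes were. None was 2-fold lower by its brightest probe set, against 4.77% and 3.41% of all genes. Of 16 member probe sets with a value, 1 was at least 2-fold lower in DKO cells and 2 in WT cells, all of Hgf. Over all probe sets with a value it was 1080 of 23768 and 979 of 24451. Vegfc and Met had a value for LPS in DKO cells only through the array with LPS, where they were above the floor, so any difference of theirs could run only upwards. The median log2 difference of the 7 was 0.45 in DKO cells and 0.57 in WT cells, against -0.10 and -0.086 over all genes with a value. The median in DKO cells thus includes these bounds on Vegfc and Met. The 5 genes above the floor on all 4 arrays read -0.65 (Vegfa), -0.35 (Vegfb), -0.15 (Hgf), 0.45 (Igf1) and 1.14 (Pdgfb) there.

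For DKO against WT cells with LPS, 2 of 7 genes were at least 2-fold lower, Vegfc and Met, where 0.934% of 11236 genes were, and none was higher, against 0.845%. Both were known from earlier results of these arrays when the genes were chosen. The median of the 7 genes was 0.20, against -0.040 over all genes. Without LPS none of 7 passed 2-fold in either direction, where 1.45% of 11380 genes did, and the median was 0.086, against -0.017. The difference of the LPS effects had a value for 5 genes, and none passed 2-fold, where 2.03% of 9982 genes did. It was 0.44 for Hgf, 0.27 for Vegfb, -0.12 for Igf1 and 0.0037 for Vegfa, which took the other sign under 3 scalings and with an offset of 16 units. In bulk RNA such as this, fewer cells that express a gene and less of its RNA per cell cannot be told apart.

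**Figure D3:**
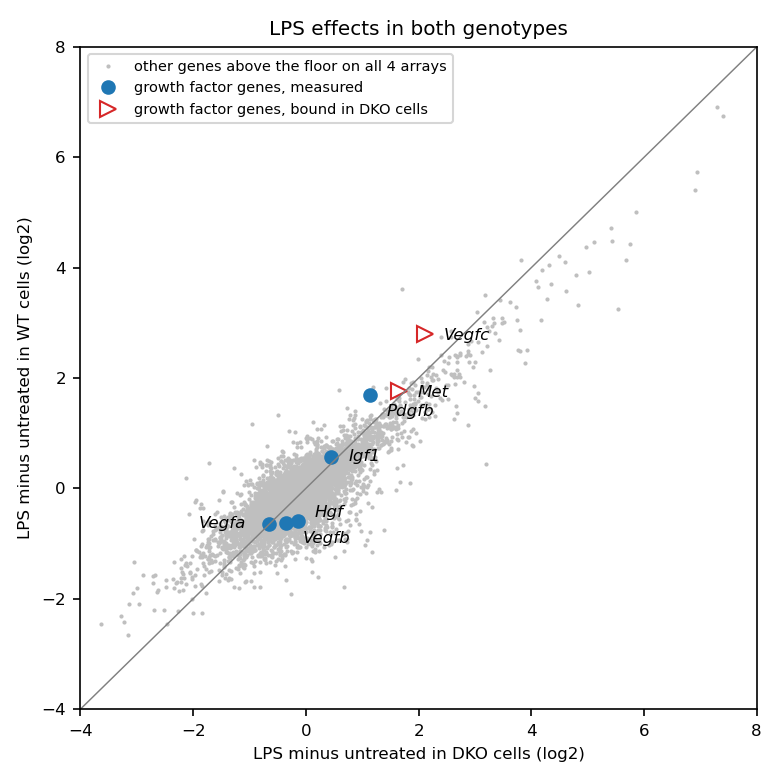
LPS effect in DKO cells (x axis) against that in WT cells (y axis), both as log2 of LPS over untreated, for the growth factor genes and, in grey, the other genes above the floor on all 4 arrays. Triangles mark Vegfc and Met, whose value in DKO cells is a lower bound, and the line marks equal effects.

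With array medians set equal, the median over all genes became 0.12 in place of -0.086 for LPS in WT cells, and 0.19 in place of -0.017 for untreated DKO minus WT cells. For the difference of the LPS effects it became -0.26 in place of -0.047. The calls on Vegfc, Pdgfb and Met with LPS, and those on Vegfc and Met between genotypes, were the same under equal medians, quantile normalization and cyclic loess. Under a floor at the 65th percentile the bound on Vegfc with LPS in DKO cells no longer reached 2-fold and Met had no value there, leaving Pdgfb.

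Vegfc and Met shared the order of the 4 arrays, so the bases before their start sites are shown, from the RefSeq promoter table of build GRCm38.p6, which held 6 of the 9 genes. Each window is the 250 bases before the start, 5′ to 3′ on the gene's strand, here the plus strand, at chr6:17463707-17463956 for Met and chr8:54077282-54077531 for Vegfc. Capitals mark matches to the motifs searched.
Met: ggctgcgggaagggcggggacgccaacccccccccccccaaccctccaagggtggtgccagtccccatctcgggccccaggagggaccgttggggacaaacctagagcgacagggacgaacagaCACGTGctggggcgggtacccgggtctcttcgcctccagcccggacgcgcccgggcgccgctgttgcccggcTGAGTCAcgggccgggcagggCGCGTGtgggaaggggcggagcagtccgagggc
Vegfc: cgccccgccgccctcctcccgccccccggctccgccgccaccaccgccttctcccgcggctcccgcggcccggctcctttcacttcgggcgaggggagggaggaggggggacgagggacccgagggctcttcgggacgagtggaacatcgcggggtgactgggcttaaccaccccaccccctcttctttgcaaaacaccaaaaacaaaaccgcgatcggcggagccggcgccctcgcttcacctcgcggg
Searched on both strands were CACGTG and CACGCG, bound by HES and HEY proteins, the N-box CACNAG, bound by HES proteins, the hypoxia element ACGTG, which lies within CACGTG, the AP-1 site TGANTCA, and the kB consensus of NF-kB.

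The Met window held CACGTG at bases -126 to -121 from the start, which also counts as a hypoxia element, TGAGTCA at -54 to -48, and CACGCG read on the other strand at -33 to -28. The Vegfc window held no match to any of the 6 motifs. Of 32851 windows of the same length, 6.02% held CACGTG, 7.62% CACGCG, 36.7% the N-box, 16.6% ACGTG, 6.75% the AP-1 site and 7.25% the kB consensus. Among the other genes, Vegfa held an N-box, a kB consensus and, at its second start site, ACGTG. Vegfb held CACGCG and an N-box, Igf1 an AP-1 site and Hgf none. A match describes letters only, and binding was not measured.

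Genes of the same pathways were listed by role, 99 in all beside the 10, of which 98 were measured. In these lists 9 genes were at least 2-fold higher and 4 lower with LPS in DKO cells, of 69 with a value, and 5 and 3 of 64 in WT cells. Among those called, Pdgfrb, Spint2, Igfbp7 and Sema3c had a value in DKO cells only through the array with LPS. Their differences there could run only upwards. Angptl4 in DKO cells and Mdk in WT cells had a value only through the untreated array, so theirs could run only downwards. Over all genes with a value the shares were 4.66% higher and 4.77% lower in DKO cells, and 3.36% and 3.41% in WT cells. For DKO against WT cells with LPS the counts were 1 higher and 1 lower of 64, and without LPS 0 and 4 of 66, where over all genes 0.845% were higher and 0.934% lower with LPS and 1.45% passed in either direction without it. The difference of the LPS effects passed 2-fold upwards in 1 and downwards in 1 of 54, Igfbp5 and Angpt2, against 2.03% of all genes. The list medians lay near 0, at -0.0079 and -0.062 for LPS and at 0.036 and 0.024 for genotype.

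Among 5 other VEGF and PDGF ligands, 3 had a value and Pdgfc, a ligand of PDGF receptors, was lower with LPS. It read 302 units in DKO cells with LPS, 827 in untreated DKO cells, 187 in WT cells with LPS and 476 in untreated WT cells. Pdgfc was thus 2.74-fold lower with LPS in DKO cells and 2.54-fold lower in WT cells, the opposite direction to Pdgfb. Of 7 receptors, 6 had a value with LPS. Kdr, which encodes the VEGF receptor VEGFR2, was 2.22-fold lower with LPS in DKO cells, at 286 against 635 units, and 1.72-fold lower in WT cells, at 350.1 against 601. Pdgfrb, a receptor for PDGF-BB, read 144 units in DKO cells with LPS, 4.05 in untreated DKO cells, 62.1 in WT cells with LPS and 24.2 in untreated WT cells. It was 2.32-fold higher in DKO than in WT cells with LPS, and at least 2.72-fold higher with LPS in DKO cells. Its other probe set stayed under the floor throughout, and both calls were lost when the probe sets were combined by their median. As for Met, that median shrinks any difference by construction.

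None of 8 other EGF family ligands and none of 4 EGF receptor genes passed 2-fold in any comparison, and at most 4 of the ligands and 2 of the receptors had a value. Among 10 genes of ligand shedding, Rhbdf2 was higher with LPS, and none passed 2-fold between genotypes. Rhbdf2 encodes iRhom2, which brings ADAM17 to the cell surface. It read 1474 units in DKO cells with LPS, 546 in untreated DKO cells, 1589 in WT cells with LPS and 600.3 in untreated WT cells, or 2.70-fold and 2.65-fold with LPS.

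In the list on HGF activation and the MET family, of 13 genes, the protease inhibitor genes Spint1 and Spint2 and the urokinase receptor gene Plaur passed 2-fold. Spint1 and Spint2 encode inhibitors of the proteases that activate HGF. Spint1 read 70.9 units in DKO cells with LPS, 118 in untreated DKO cells, 297 in WT cells with LPS and 494 in untreated WT cells. It was lower in DKO cells by 4.19-fold with LPS and 4.20-fold without it, and with a floor at the 65th percentile the value with LPS was a bound of -0.82 (log2). Spint2 read 223, 30.5, 309 and 58.6 units on the same arrays, at least 4.22-fold higher with LPS in DKO cells and 5.27-fold in WT cells. With a floor at the 65th percentile both fell short of 2-fold, at bounds of 0.41 and 0.88 (log2). Its other probe set gave 2.39-fold and 2.21-fold. Plaur was 4.33-fold higher with LPS in DKO cells and 2.40-fold in WT cells. In untreated cells it was 2.13-fold lower in DKO than in WT cells, or -0.88 (log2) with array medians set equal. Spint1 and Plaur lay in the range where the untreated WT array read higher by a median of 0.23 (log2). The part of that excess in their differences without LPS was not tested.

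Among 14 genes of the IGF axis, Igfbp5 and Igfbp7, which encode IGF binding proteins, passed 2-fold. Igfbp5 read 88.6 units in DKO cells with LPS, 59.3 in untreated DKO cells, 82.4 in WT cells with LPS and 158 in untreated WT cells. It was 2.67-fold lower in DKO cells without LPS, in the range where the untreated WT array read higher by a median of 0.23 (log2), whose part in the result was not tested. Its second probe set was under the floor on every array, and the call was lost when all probe sets were combined by their median, at -0.71 (log2). As for Met, that median shrinks any difference by construction. Igfbp7 was at least 2.02-fold higher with LPS in DKO cells by its brightest probe set, and its other probe sets were under the floor on every array. The other 12 genes, the IGF1 receptor gene among them, had no value or did not pass 2-fold.

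Of 18 other angiogenic factors and inhibitors, 17 were measured and at most 7 had a value. Angpt2, an antagonist of the receptor TIE2, was 3.92-fold lower with LPS in DKO cells, at 69.5 against 272 units, and 1.19-fold lower in WT cells, at 131 against 156. Angptl4, a secreted lipase inhibitor, was at least 3.23-fold lower with LPS in DKO cells and 4.60-fold lower in WT cells. Mdk, midkine, was at least 2.48-fold lower with LPS in WT cells. Sema3c, a guidance factor, was at least 2.54-fold higher with LPS in DKO cells and at least 2.49-fold lower in untreated DKO than in untreated WT cells. Both are bounds from an untreated DKO value of 52.6 units, just under the floor, so the difference without LPS could run only downwards. Sema3c also lay where the untreated WT array read higher by a median of 0.23 (log2), whose part was not tested. The calls on Angpt2 and Angptl4 in DKO cells and both calls on Sema3c were lost when all probe sets of a gene were combined by their median, and those on Angpt2 in DKO cells and Angptl4 in both genotypes with a floor at the 65th percentile. The other probe set of each of these genes was under the floor on every array, so that median shrinks any difference by construction.

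All 20 hypoxia response genes had a value. Hif1a, the inducible subunit of hypoxia-inducible factor, was 2.50-fold higher with LPS in DKO cells and 2.44-fold in WT cells. The glucose transporter gene Slc2a1 was 4.23-fold and 2.85-fold higher, and Ddit4 2.05-fold and 1.71-fold, the first 0.98 (log2) with an offset of 16 units. Of the other probe sets of Hif1a, 1 gave 2.35-fold in DKO cells and 1.38-fold in WT cells, so that the call in WT cells does not hold in all of them. The list median was -0.0015 in DKO cells and 0.014 in WT cells, and Vegfa, a gene of the same response, read lower with LPS as given above. None of the 20 passed 2-fold between genotypes.

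**Figure D4:**
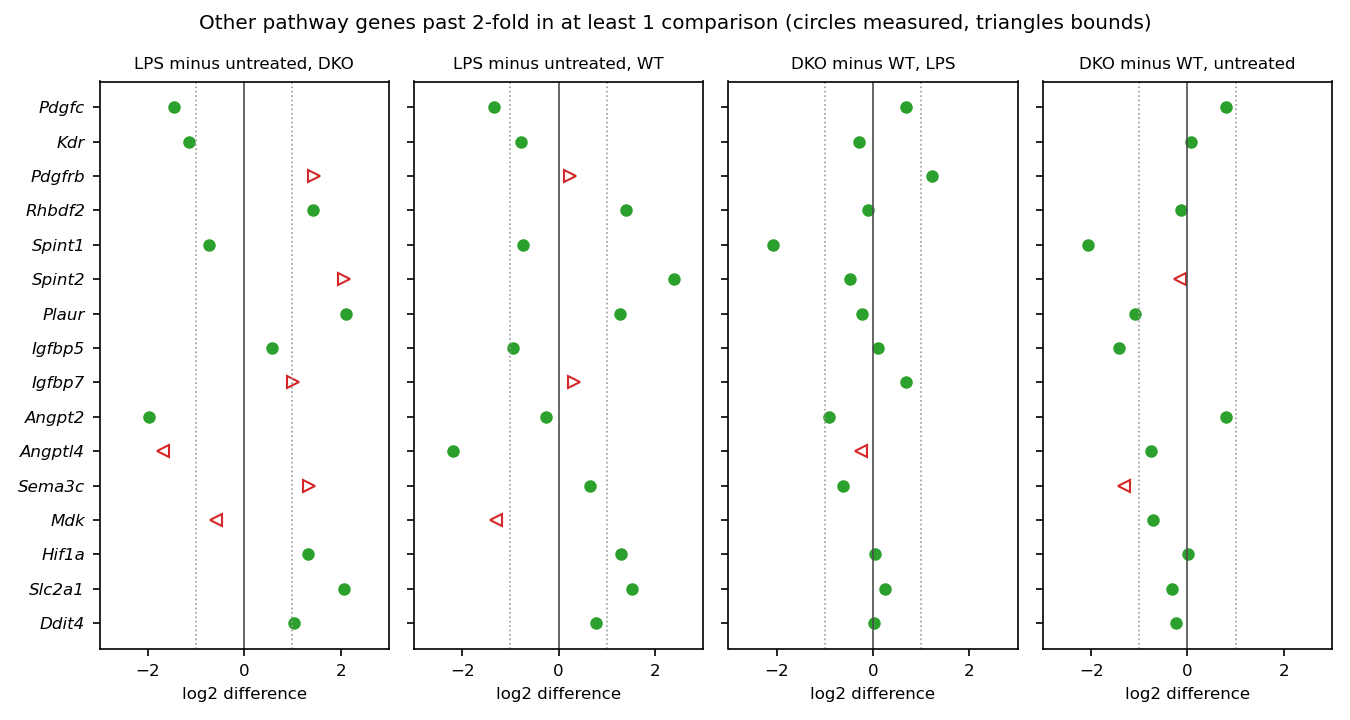
Log2 differences of the 16 other pathway genes that passed 2-fold in at least 1 comparison, by brightest probe set, with circles for measured differences, triangles for bounds and dotted lines at 2-fold. Spint1 lies left of the 2-fold line in both panels of DKO minus WT, and Pdgfc and Angptl4 lie left of it in both panels of LPS minus untreated.

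The genes most like a member were sought among 9982 genes above the floor on all 4 arrays, by the distance between log2 values centred on each gene's own mean. With 4 arrays many genes lie close, and the distance describes these arrays only. Nearest to Pdgfb were Ksr1, a scaffold of the RAF and MEK kinases, at a distance of 0.16, and Rhbdf2 at 0.30. Nearest to Igf1 were Pgpep1 at 0.039 and the mRNA decapping gene Dcp2 at 0.044. Vegfa had Decr2 at 0.030 and Reps2 at 0.035, Vegfb had Pwwp2a at 0.029 and Cavin1 at 0.046, and Hgf had S100a16 at 0.050 and the cell cycle inhibitor gene Cdkn1b at 0.073. Pdgfb thus had the most distant neighbours of the 5, and Vegfc and Met, under the floor on an array, were not placed.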

How the data were processed

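Each of 4 RNA samples was hybridised to 1 Affymetrix mouse array after amplification and biotin labelling, per the labels' protocols. The deposited intensities are linear, 1 per probe set, and from the values each array has a trimmed mean of 500.0 units after 2% is cut at both ends, so the authors scaled the arrays. The summarisation tool is not stated in the sources used here. A common trimmed mean is set by bright signal and does not fix dim signal.

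From 45101 probe sets, 64 controls were left out. Of the rest 932 had several genes and 9160 none listed, and were not named. Symbols were updated by Entrez identifier with the RefSeq table of GRCm38.p6. Differences are log2 of floored intensities, counted at 2-fold, with no test. The steps were checked on simulated data with known folds. The genes and lists were chosen with earlier results of these data known. Text names all members, pathway genes past 2-fold in any comparison, Hes1, Hey1, the 2 nearest genes per member, and 6 marker genes chosen after their values were seen. Alternatives were 3 scalings, 2 floors, an offset of 16 units, other choices of probe set and thresholds of 1.5-fold and 3-fold. Python 3.11.15, numpy 2.4.6, pandas 2.3.3 and limma 3.58.1 in R 4.3.3 were used.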

Additional observations from a re-analysis of the deposited data

Results flagged for a closer look

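Among the genes named here that were above the floor on all 4 arrays, the same comparison went opposite ways in the 2 treatments or genotypes in 9. Each value rests on single arrays, the difference was not tested, and genes of the pathway lists that are not named were not examined for this. For DKO minus WT cells the log2 difference of Pdgfb was -0.47 with LPS and 0.086 without it. By its other probe set it was -0.30 and -0.10, with no change of direction. The log2 difference of Angpt2 was -0.92 with LPS and 0.80 without it, that of Kdr -0.29 and 0.079, and that of Ksr1 -0.39 and 0.25. The opposite turn was read for Igfbp5, at 0.10 with LPS and -1.42 without it, Slc2a1, at 0.24 and -0.33, Ddit4, at 0.028 and -0.24, Cavin1, at 0.27 and -0.061, and Pwwp2a, at 0.24 and -0.00087. The LPS effect of Igfbp5 was 0.58 in DKO cells and -0.94 in WT cells. Most of these differences were small beside the 95th percentile of the gap between 2 probe sets of a gene, 0.69 (log2) with LPS and 0.72 without it. All these genes but Pdgfb and Slc2a1 lay in the range where the untreated WT array read higher by a median of 0.23 (log2). Such an excess lowers DKO minus WT cells without LPS, the direction read there for Igfbp5, Ddit4, Cavin1 and Pwwp2a. Angpt2, Kdr and Ksr1 read upwards there. The values of Cavin1 and Pwwp2a without LPS were smaller in size than 0.23. The part of the excess in these turns was not tested.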

How the results depend on the processing

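Each of 281 differences of single members under an alternative kept its direction where the gene had passed 2-fold. In 38 it moved by more than the median gap between probe sets of a gene, and in 243 by less. Among differences short of 2-fold, Hgf with LPS in DKO cells, Pdgfb in untreated DKO minus WT cells, and the differences of LPS effects of Vegfa and Hgf took the other sign under at least 1 alternative. Of the counts of members past 2-fold, that for LPS in DKO cells was 1 with a floor at the 65th percentile in place of 3, and 2 by the median of probe sets. For LPS in WT cells it was 2 by that median and 6 at a threshold of 1.5-fold, 3 higher and 3 lower, in place of 3 higher. By the second brightest probe set it was 2 higher and 1 lower, Hgf. For untreated DKO against WT cells it was 2 with a floor at the 35th percentile, 1 without a floor and 1 at a threshold of 1.5-fold, in place of 0. With LPS it was 1 by the median of probe sets, 1 by the second brightest probe set, an alternative chosen after seeing the data, and 0 at 3-fold, in place of 2. Second probe sets exist for 7 of the 9 genes and that of Met is under the floor. The median of the Met probe sets is thus smaller by construction, and Met is the gene lost in the counts by that median. No paired analysis was possible because each group has 1 array. Signal over background limits Hbegf, Ereg, the second probe set of Met and the untreated levels of Vegfc.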

Other observations

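Hif1a had other probe sets that differ from the brightest in the genotype comparison. With LPS they gave log2 differences of DKO minus WT cells of 0.54 and -0.39, against 0.046 for the brightest, and another stayed under the floor throughout. The 3 probe sets of Slc2a1 gave LPS effects of 2.08 to 2.35 in DKO cells and of 1.51 to 1.63 in WT cells (log2). The second probe set of Pdgfc gave -1.32 with LPS in DKO cells and -1.51 in WT cells.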
